A study of Mus musculus with 4 samples.

Results

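The mitochondrial respiratory chain was examined in RNA from cells sorted out of mouse lung tumours, by its complexes and by the genome that encodes each subunit. Gene symbols were taken by name pattern from the deposited table: the Nduf subunits of complex I, the Sdh genes of complex II, the Uqcr genes of complex III, the Cox4 to Cox8 genes of complex IV, the Atp5 genes of complex V and the protein genes of mitochondrial DNA. The pattern found 102 of 17746 symbols. Of these, 80 were nuclear subunit genes (36 in complex I, 4 in II, 8 in III, 15 in IV and 17 in V), 13 were mitochondrially encoded subunits and 9 were pseudogenes. Ndufa4 was counted in complex I by its name, although its protein is now regarded as a part of complex IV.

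The mice carried floxed Rb1 and Trp53 alleles (Rb1fl/fl; Trp53fl/fl) and the knocked-in autophagy reporter GFP-LC3-RFP-LC3ΔG, and their tumours model small cell lung cancer. Autophagy degrades the GFP part of the reporter, while the RFP part stays in the cytosol. Live EpCAM-positive, RFP-positive tumour cells were divided into a GFP-positive and a GFP-negative population, with 2 libraries of each, so both groups share the alleles, the reporter and the EpCAM gate. The Cre source, the age of the mice, and whether replicates are separate animals or pools do not appear in the labels. The p-values therefore measure only the spread between these libraries, which may be technical. Titles and design text disagree on which population has high autophagic flux, so groups are named by GFP and every difference is GFP-negative minus GFP-positive.

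Complexes I, III and IV pump protons across the inner mitochondrial membrane as electrons pass from NADH or from complex II through coenzyme Q and cytochrome c to oxygen, and complex V uses the resulting gradient to make ATP. Complex II is the succinate dehydrogenase of the citric acid cycle and has only nuclear subunits. The other complexes combine nuclear subunits, which are imported, with a core made inside the organelle from mitochondrial DNA, so the chain depends on both genomes. The mitochondrial genes are transcribed from both strands as long precursors that are cut into shorter RNAs, and mitochondria are themselves a cargo of autophagy.

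The libraries were uneven. They held 51994432 to 73997175 counts, but GFP-positive replicate 1 had counts for only 6063 symbols, against 15710 to 17617 in the other 3. Levels of a gene across libraries are given below as CPM, counts scaled to a common library size with TMM factors. Values are written as GFP-positive replicates 1 and 2 against GFP-negative replicates 1 and 2, and levels between genes as FPKM, which is also scaled to the length of the gene model. Summed markers of neuroendocrine tumour cells (10 genes) stood at 3694 and 1160 against 5233 and 1483 CPM, with Chga and Chgb at 0 in GFP-positive replicate 1. Summed markers of macrophages (21 genes) stood at 126766 and 76377 against 1392 and 26287 CPM, with 1 of the 21 at 0 in GFP-positive replicate 1 and none at 0 in the other libraries. Of the listed markers, 6 of 7 for red blood cells and 6 of 10 for hepatocytes had an entry in the deposited table. Apoa1, Serpina1a, Fgb and Ahsg were the hepatocyte genes without one. Summed red blood cell markers stood at 45562 and 14336 against 1573 and 5395 CPM, and those of hepatocytes at 32764 and 1691 against 175 and 936 CPM. Their part in the subunit levels was not tested. In bulk RNA, fewer cells of a type and less RNA per cell cannot be told apart.

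On the mitochondrial genome some reading frames share bases, and a read that lies wholly within the shared bases cannot be assigned to either gene alone. The stretch shown for the longest overlap on 1 strand is from GENCODE M21 transcripts (mm10), 5′ to 3′ on the plus strand, and capitals mark the start codon of mt-Atp6. The mt-Atp8 and mt-Atp6 frames share 43 bases at chrM:7927-7969, and mt-Nd4l and mt-Nd4 share 7 bases at chrM:10167-10173.
mt-Atp8 and mt-Atp6: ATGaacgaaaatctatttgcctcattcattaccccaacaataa

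The nuclear subunit genes lie on many chromosomes, and many are known targets of NRF1, a transcription factor of mitochondrial genes. RefSeq promoter windows (GRCm38.p6, 250 bases before to 50 after the start, the first listed per gene) matched 66 of the 80 by symbol. Searched on both strands, the NRF1 core GCGCATGCG was found in 8 of these 66 windows (12.1%), against 1.81% of 27025 windows of all genes. The ETS letters CCGGAAGT were found in 5 of 66 (7.58%, against 4.0%), and the SP1 letters GGGCGG in 27 of 66 (40.9%, against 35.9%). In complex III, 2 of 5 windows held the NRF1 core, those of Uqcrc1 and Uqcr11, and in complex I 2 of 32. It was found in 0 of 3 windows in complex II, 1 of 11 in IV and 3 of 15 in V, few windows for a comparison of complexes. A match is a description of letters, not a site of binding. To show the shared element in 3 complexes, 100 bases are given for Ndufa11 (complex I, chr17:56717657-56717756, plus strand), Cox6a1 (complex IV, chr5:115349066-115349165, minus strand) and Atp5k (complex V, chr5:108434400-108434499, minus strand), each on the strand of the gene, 5′ to 3′, with capitals for the NRF1 core matched on either strand.
Ndufa11: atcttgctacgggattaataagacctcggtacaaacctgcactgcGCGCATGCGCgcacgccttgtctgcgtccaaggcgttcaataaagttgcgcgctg
Cox6a1: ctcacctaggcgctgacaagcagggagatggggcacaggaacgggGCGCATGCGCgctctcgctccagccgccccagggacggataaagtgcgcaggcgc
Atp5k: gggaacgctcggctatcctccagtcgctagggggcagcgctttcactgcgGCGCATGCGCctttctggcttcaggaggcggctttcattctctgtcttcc

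No respiratory chain subunit passed the test between GFP-negative and GFP-positive cells. With p-values adjusted over all genes, the quasi-likelihood test of edgeR called 0 of 93 subunit genes, while it called 0.00613% of 16301 tested genes higher and 0.092% lower. At an unadjusted p under 0.05 there were also 0 of 93, against 3.1% of all tested genes. DESeq2 and limma on FPKM called 0 subunits too. Fitted log2 changes ran from -1.82 (Sdhc) to 2.13 (Ndufs1), with standard errors of 0.754 to 4.43, and only 2 of the 93 exceeded their own standard error. With errors of this size, the count of 0 does not show that expression was equal.

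Few subunits had groups that did not overlap, and their number changed with the scaling. Under TMM both GFP-negative libraries lay above both GFP-positive libraries for 1 subunit, Ndufs1, where 25.2% of all tested genes did so. They lay below for 5, Ndufa6, Sdhc, Uqcrb, Cox8a and Atp5g3, against 6.63% of all tested genes. The table also holds 11683 symbols with 0 counts in GFP-positive replicate 1. Among the 5492 tested genes with counts in all 4 libraries the shares were 13.2% above and 18.4% below, and the same 1 and 5 of the 84 subunits with counts in all 4. With library totals in place of TMM scaling, 12 of the 80 nuclear and 4 of the 13 mitochondrially encoded subunits lay above and 0 below, where 31.1% of all tested genes lay above and 4.53% below.

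The median log2 change was 0.37 for the nuclear subunits of complex I, with 25 of 36 above 0. It was -0.01 for complex II (2 of 4), 0.20 for complex III (5 of 8), 0.06 for complex IV (8 of 15) and -0.003 for complex V (8 of 17). Over all 80 nuclear subunits the median was 0.25, with 48 above 0, and over the 13 mitochondrially encoded subunits -0.15, with 5 above 0. Of all 16301 tested genes, 11102 were above 0. The median over all tested genes was 0.91 under TMM, 1.12 under DESeq2 size factors and 1.33 under library totals, and 0.29 without GFP-positive replicate 1. In a separate fit of the genes detected in every library it was -0.06, against 0.14 for 71 nuclear and -0.07 for 13 mitochondrially encoded subunits. Under library totals 67 of 80 nuclear and 10 of 13 mitochondrially encoded subunits had changes above 0, and the median of the latter turned to 0.40. With that scaling 12385 of all 16301 tested genes had changes above 0.

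**Figure D1:**
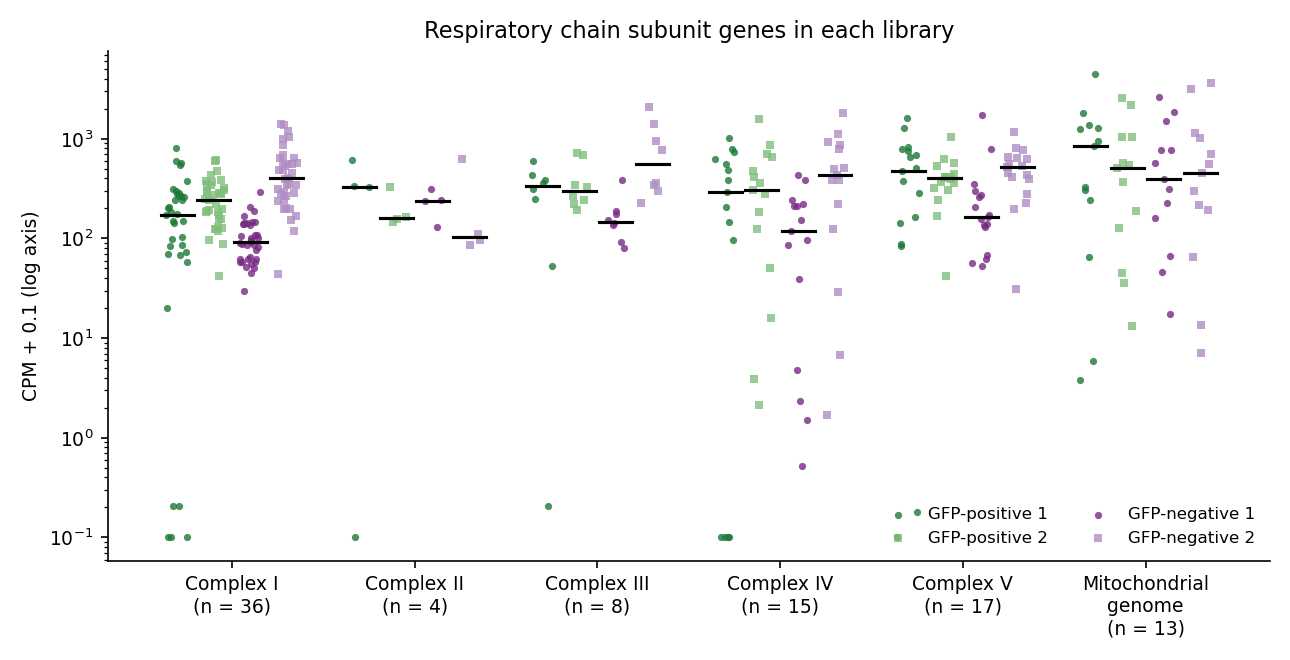
CPM plus 0.1 (log axis) of each subunit gene (points) in the 4 libraries, by complex for nuclear subunits and together for the mitochondrial genome, with medians as black bars. The points at the bottom are the subunits with 0 to 4 counts in GFP-positive replicate 1, and GFP-negative replicate 2 lies above GFP-negative replicate 1 in complexes I, III, IV and V but not in complex II.

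The libraries of a group lay far apart. Across nuclear subunits the median absolute log2 difference was 1.91 between the GFP-negative libraries and 0.94 between the GFP-positive libraries, against a median absolute fitted group change of 0.45. GFP-negative replicate 2 was above replicate 1 for 72 of 80 nuclear subunits under TMM and 69 of 80 under library totals. For comparison, it was higher for 760 of 1051 genes at 50 CPM or more in every library. By complex this held for 35 of 36 subunits in complex I, 8 of 8 in III, 15 of 15 in IV and 13 of 17 in V, with median log2 differences of 2.16, 1.84, 1.98 and 1.55. In complex II it held for only 1 of 4, with a median of -0.87. GFP-negative replicate 2 was the highest of the 4 libraries for 56 of the 80 nuclear subunits under TMM and for 60 under library totals. No such count over all genes is given here, so whether this is particular to the subunits is not known. Summed markers of alveolar type 2 cells (5 genes), an epithelial cell type of the lung, stood at 147 and 195 against 95.7 and 2400 CPM, with Sftpb, Sftpa1 and Abca3 at 0 in GFP-positive replicate 1. Summed B and plasma cell markers (1890 and 6668 against 3168 and 21424 CPM) and muscle markers were also highest in GFP-negative replicate 2. The macrophage, hepatocyte, red blood cell, neuroendocrine, epithelial, T and NK cell and endothelial sums were highest in another library. The part of these cell types in the levels of GFP-negative replicate 2 was not tested.

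Which GFP-negative library was left out set the sign of the medians of complexes I, III, IV and V. Without GFP-negative replicate 2 the median log2 change was -1.06 for complex I, -1.02 for III, -1.40 for IV and -0.96 for V. Without GFP-negative replicate 1 it was 1.05, 1.06, 0.68 and 0.41 in the same order. Complex II went from -0.45 without replicate 1 to 0.02 without replicate 2, and the mitochondrially encoded subunits from -0.28 to -0.15. edgeR called 0 of 93 subunits in either of these fits and without GFP-positive replicate 1.

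**Figure D2:**
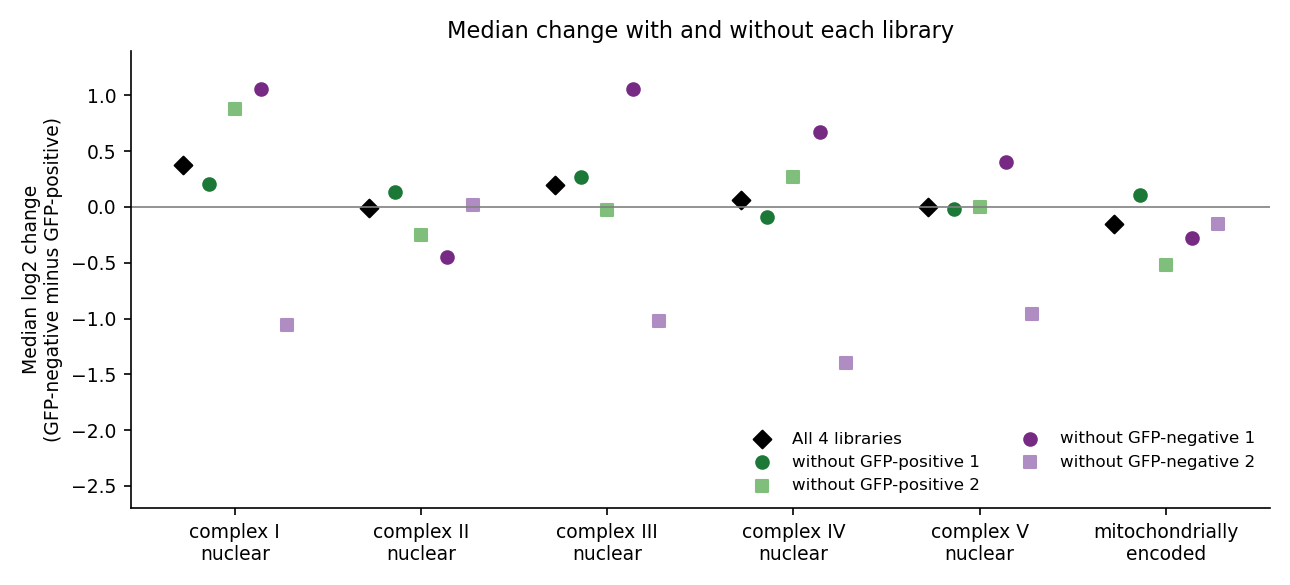
Median fitted log2 change (GFP-negative minus GFP-positive) of the tested subunits of each complex and of the mitochondrial genome, with all 4 libraries (diamonds) and without each library in turn. Without GFP-negative replicate 2 the medians of complexes I, III, IV and V lie between -1.40 and -0.96, and without GFP-negative replicate 1 between 0.41 and 1.06.

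Complex I carries electrons from NADH into the chain and is the largest complex. Ndufa12, an accessory subunit, stood at 284 and 353 against 144 and 1385 CPM (log2 change 1.27 ± 1.48, SE, n = 2 per group, edgeR adjusted p = 1.0). Ndufc1, a small membrane-arm subunit, had 151 and 294 against 54.8 and 1048 CPM (1.31 ± 1.67). For both genes the GFP-negative libraries were the lowest and the highest of the 4, so the groups overlapped entirely. Ndufa2 and Ndufb9 were the most abundant nuclear complex I subunits per length, at a mean of 736 and 430 FPKM. Ndufb9 had 311 and 609 against 189 and 989 CPM, again with the GFP-negative libraries at the extremes, and Ndufa2 598 and 477 against 138 and 871 CPM. Ndufa6 had 208 and 172 against 51.4 and 169 CPM, groups that were apart by only a narrow margin.

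Ndufs1 is the large iron-sulfur core subunit of complex I. It had 0.11 and 42.1 against 141 and 43.6 CPM (2.13 ± 3.42, edgeR adjusted p = 1.0). Its groups did not overlap. However, GFP-positive replicate 2 and GFP-negative replicate 2 were almost level, and the log2 change was 1.12 ± 1.71 without GFP-positive replicate 1, where it had 4 counts. Ndufv1, a core subunit that binds NADH, stood at 57.6 and 125 against 102 and 198 CPM.

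Complex II oxidises succinate and joins the citric acid cycle to the chain. Sdhc, a membrane anchor, stood at 607 and 157 against 130 and 86.5 CPM (-1.82 ± 1.96, edgeR adjusted p = 1.0). Sdhd, the other anchor, had 0 and 166 against 246 and 110 CPM (1.10 ± 2.42). The anchors thus had fitted changes of opposite sign, with Sdhc highest in the library where Sdhd had no counts. Sdha, the flavin-bearing catalytic subunit, had 329 and 146 against 235 and 96.0 CPM. Sdhb, the iron-sulfur subunit, had 334 and 329 against 314 and 625 CPM and was the only member of the complex that was higher in GFP-negative replicate 2 than in replicate 1.

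Complex III passes electrons from coenzyme Q to cytochrome c. Uqcrc1, a core protein, stood at 0.11 and 691 against 382 and 2062 CPM (1.82 ± 1.31). Its unadjusted p in the edgeR fit, 0.165, was the smallest of the 93 subunits. Its partner Uqcrc2 stood at 53.1 and 192 against 187 and 296 CPM (0.98 ± 2.11). The GFP-negative libraries did not lie together for either gene, and both were lowest in GFP-positive replicate 1. Uqcr10 and Uqcr11, small subunits, were the most abundant members per length, at a mean of 912 and 497 FPKM. Uqcr10 had 315 and 718 against 137 and 1397 CPM. Uqcrb, which helps to shape the quinone pocket, varied little, at 247 and 269 against 176 and 229 CPM.

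Complex IV reduces oxygen, and several of its nuclear subunits exist as paralogues of which some are known from heart and skeletal muscle, lung or testis. Cox6a1, the broadly expressed form, was the most abundant nuclear subunit of all, at a mean of 948 FPKM, with 1030 and 867 against 385 and 930 CPM (-0.53 ± 1.26, edgeR adjusted p = 1.0). Cox4i1 had 729 and 1575 against 430 and 1817 CPM (-0.04 ± 1.11), and Cox6c 783 and 478 against 211 and 499 CPM (-0.83 ± 1.52). GFP-negative replicate 1 was the lowest library for all 3. Cox8a had 388 and 409 against 97.0 and 384 CPM, so its groups were apart although 3 of the libraries were almost level.

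The tissue-restricted paralogues made up small shares of their pairs. Cox6a2, the muscle form, had 0 and 50.01 against 4.73 and 123 CPM, and made up 0, 5.62, 1.25 and 12.04% of the summed FPKM of the Cox6a pair. Cox7a1, also known from muscle, had 0 and 15.8 against 1.39 and 29.2 CPM, or 0, 7.12, 0.998 and 6.13% of the FPKM of Cox7a1 and Cox7a2, the latter standing at 621 and 364 against 242 and 787 CPM. Both were highest in GFP-negative replicate 2 and next in GFP-positive replicate 2. Summed muscle markers were low, at 0 and 4.74 against 3.10 and 12.8 CPM for 4 genes, all at 0 in GFP-positive replicate 1. Summed B and plasma cell markers stood at 1890 and 6668 against 3168 and 21424 CPM, with Jchain, Igha, Cd79a, Cd79b and Ms4a1 at 0 in GFP-positive replicate 1, and their part in the paralogue levels was not tested. Cox6b1, the common partner of Cox6b2, had 145 and 655 against 213 and 864 CPM. Cox4i2, known from lung, and Cox6b2, known from testis, stayed under 7 CPM and under 0.7% of their pairs in every library. At 0 counts the limit in GFP-positive replicate 1 is 3 counts, or 0.080 CPM, for counting error only. Cox7b2, Cox8b, Cox8c and the inhibitor Atp5if1 had no entry under these symbols in the deposited table, so they were not analysed here.

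Cox7a2l, which is known for joining complexes III and IV into supercomplexes, stood at 207 and 125 against 39.1 and 386 CPM (0.36 ± 2.06). Ndufa4 had 83.8 and 156 against 82.0 and 313 CPM (0.72 ± 2.22). Its paralogue Ndufa4l2, known for induction by low oxygen and outside the name pattern, had 0 and 3.18 against 11.3 and 5.96 CPM. Ndufa4l2 was thus lower than Ndufa4 in each library.

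Complex V is the ATP synthase, a catalytic head on a rotor in the membrane. Atp5c1, the central stalk, stood at 1633 and 394 against 261 and 536 CPM (-1.35 ± 1.35, edgeR adjusted p = 1.0). Atp5md, a small membrane subunit, had 761 and 371 against 61.5 and 457 CPM (-1.13 ± 1.62). For both genes GFP-positive replicate 1 was the highest library and GFP-negative replicate 1 the lowest. Atp5k, a small membrane subunit whose promoter is shown above, was the most abundant nuclear complex V subunit per length, at a mean of 353 FPKM, with 83.5 and 318 against 67.4 and 561 CPM. The catalytic subunit Atp5b went the other way within the GFP-negative group, at 1297 and 1034 against 1715 and 516 CPM. Atp5a1, which makes up the head together with Atp5b, had 837 and 628 against 792 and 391 CPM. These, with Atp5g2 and Atp5g3, were the only 4 of the 17 that were higher in GFP-negative replicate 1 than in replicate 2.

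The rotor ring is made of a single protein that 3 genes encode, with different import sequences and the same mature form. Their shares differed between libraries, and for each of the 3 genes the groups overlapped. Atp5g3 supplied 89.0 and 50.8% of their summed FPKM in GFP-positive and 60.5 and 37.1% in GFP-negative libraries. Atp5g1 supplied 10.98 and 37.9% against 18.2 and 55.2%, and Atp5g2 0 and 11.3% against 21.3 and 7.68%. In CPM, Atp5g3 had 511 and 246 against 207 and 197, and its groups were apart with 2 GFP-negative values that were close together.

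A set of subunits had almost no counts in GFP-positive replicate 1 and was detected elsewhere. In that library 9 of 80 nuclear subunits had 0 counts and 13 had fewer than 10, and no subunit was under 10 counts in the other 3 libraries. They were Ndufa10, Ndufa13, Ndufb2, Ndufb6 and Ndufs1 of complex I, Sdhd, Uqcrc1, Atp5d and Atp5g2, and the paralogues Cox4i2, Cox6a2, Cox6b2 and Cox7a1. Ndufa13, which is also known as the cell death regulator GRIM-19, had 0 counts against 385, 106 and 681 CPM. Ndufb2 had 0 against 185, 45.1 and 286 CPM. Ndufa10 had 0 against 156, 108 and 294 CPM, and Ndufb6 0.11 against 241, 85.3 and 569 CPM. Atp5d, a subunit of the central stalk, had 0.080 against 357, 157 and 224 CPM. The next lowest nuclear subunit in that library was Ndufs4, at 20.02 CPM.

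Counts in all 4 libraries were found for 90.3% of the 93 subunits and 31.7% of the 17746 symbols. Among genes with a mean of 50 CPM or more in the other 3 libraries, 5 of 87 subunits had 0 counts in GFP-positive replicate 1, or 5.75%, against 28.4% of 3204 such symbols. All 13 mitochondrially encoded subunits had counts in every library. Without GFP-positive replicate 2, the fitted log2 change was above 0 for 50 of 80 nuclear subunits and for 13858 of 16804 tested genes. In that fit the median log2 change was 0.52 over nuclear subunits, against 9.95 over all tested genes. The fit assumes that the lone GFP-positive library varies like the GFP-negative libraries do.

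The mitochondrial genome's share of the counts was higher in both GFP-negative libraries. It was 0.935% (95% Wilson interval 0.933 to 0.938) and 0.872% (0.870 to 0.874) in GFP-positive, and 1.428% (1.426 to 1.431) and 1.098% (1.095 to 1.10) in GFP-negative libraries, intervals that cover counting error only. The group means were 0.904% ± 0.045 and 1.26% ± 0.234 (SD, n = 2 each), a difference of 0.36 percentage points. It was 0.194 without GFP-negative replicate 1, 0.525 without GFP-negative replicate 2, and 0.20 when the 100 most abundant other genes were left out of the library counts. The exact two-sided permutation test gave p = 0.333, the smallest that 2 against 2 libraries allow, and 0.667 after adjustment over the 2 quantities tested. Nuclear subunits took 1.81 and 2.47% against 2.03 and 4.02% of the counts, with GFP-negative replicate 1 between the GFP-positive libraries. These shares depend on the scaling. With library totals, both GFP-negative libraries lay above both GFP-positive libraries for 4 of 13 mitochondrially encoded subunits and 31.1% of tested genes. Under TMM this held for 0 of the 13 and 25.2% of tested genes.

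The ratio between the genomes did not separate the groups. The summed FPKM of mitochondrially encoded subunits was 0.802 and 0.619 times that of the nuclear subunits in GFP-positive and 1.33 and 0.473 times in GFP-negative libraries. The GFP-negative libraries thus held the highest and the lowest ratio. On the log2 scale the means were -0.51 ± 0.26 and -0.34 ± 1.05 (SD, n = 2), and the difference of 0.17 gave p = 1.0 in the exact two-sided permutation test. Its sign depended on the library: it was 0.92 without GFP-negative replicate 2 and -0.58 without GFP-negative replicate 1. Beside this, GFP-negative replicate 1 had the lowest summed macrophage markers and the highest summed epithelial markers (1142 and 406 against 2900 and 772 CPM, with none of the 6 at 0), and their part in the ratio was not tested.

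**Figure D3:**
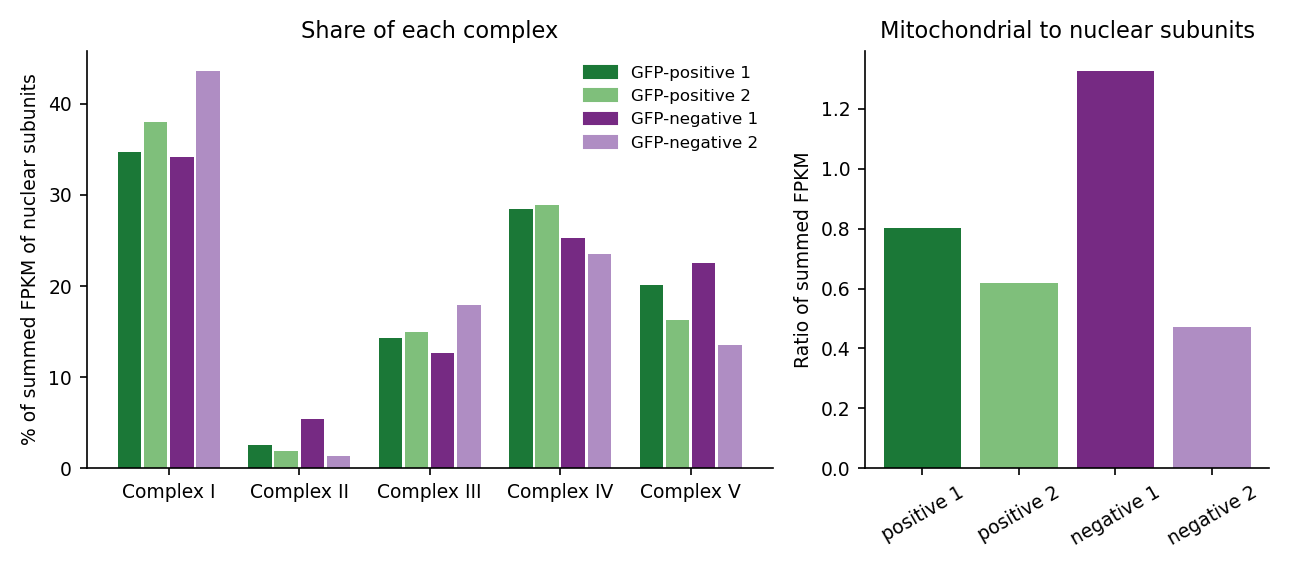
Left, percent of the summed FPKM of nuclear subunits that each complex held in each library. Right, summed FPKM of mitochondrially encoded subunits divided by that of nuclear subunits, which was highest in GFP-negative replicate 1 (1.33) and lowest in GFP-negative replicate 2 (0.473).

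Shares within the nuclear part need no scaling between libraries. Complex I held 34.7 and 38.0% of the nuclear subunit FPKM in GFP-positive and 34.1 and 43.7% in GFP-negative libraries. Complex II held 2.49 and 1.93% against 5.44 and 1.36%, complex III 14.2 and 15.0% against 12.6 and 17.95%, and complex V 20.1 and 16.2% against 22.5 and 13.5%. In these 4 complexes the GFP-negative libraries again held the extremes, complexes II and V being largest in replicate 1 and complexes I and III in replicate 2. Complex IV alone was apart by group, at 28.5 and 28.9% against 25.3 and 23.5%, a description of 2 libraries each with no test. FPKM shares also depend on the gene models. Counts, FPKM and library totals together imply model lengths from 475 bases (Ndufa1) to 9177 bases (Ndufs1), with a median of 1791 for nuclear subunits, so a gene with a long model such as Ndufb2 (6388 bases) weighs little. For mt-Atp6 the implied length was 773 bases, where the annotated length is 681.

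Among the mitochondrial genes the highest mean levels per length were those of mt-Atp6, mt-Atp8 and mt-Co1. On the genome mt-Atp8 and mt-Atp6 overlap, while mt-Co2, which is not among these, lies between mt-Co1 and mt-Atp8. mt-Atp6, a channel subunit of complex V, had the highest mean level, 2670 FPKM, at 1266 and 2170 against 1514 and 3186 CPM (0.45 ± 0.91, edgeR adjusted p = 1.0). mt-Atp8, which shares the printed bases with it, followed at 1918 FPKM, with 241 and 505 against 311 and 697 CPM. Both were lowest in GFP-positive replicate 1 and highest in GFP-negative replicate 2, with GFP-positive replicate 2 above GFP-negative replicate 1. mt-Co1, the catalytic core of complex IV, had 4476 and 2591 against 2625 and 3629 CPM (-0.18 ± 0.75). mt-Cytb, the only mitochondrial subunit of complex III, had 1819 and 1043 against 1844 and 1143 CPM (0.06 ± 1.02), so that replicate 1 exceeded replicate 2 in both groups and the groups were level.

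The mitochondrial subunits of complex I differed widely between libraries. mt-Nd2 stood at 5.86 CPM in GFP-positive replicate 1 and at 189, 159 and 303 CPM in the others, while mt-Nd1, its neighbour on the genome, stood at 1369 CPM there and at 541, 576 and 454 CPM. mt-Nd6, the only one of the 13 on the minus strand, had 330 and 45.02 against 67.0 and 65.7 CPM (-1.497 ± 2.47). GFP-positive replicate 1 was thus the lowest library for mt-Nd2 and the highest for mt-Nd1 and mt-Nd6. mt-Nd3 had the lowest mean level per length of the 13, 30.5 FPKM. mt-Nd4 had 1297 and 369 against 396 and 562 CPM, again highest in GFP-positive replicate 1. mt-Co2, a copper-bearing subunit of complex IV, had 843 and 568 against 764 and 215 CPM, and mt-Co3 940 and 1041 against 767 and 1020 CPM.

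Summed by complex, the complex I genes held 25.5 and 11.3% of the mitochondrially encoded FPKM in GFP-positive and 14.1 and 10.1% in GFP-negative libraries. The complex IV genes held 39.9 and 32.7% against 35.6 and 27.3%. The complex V genes held 22.7 and 48.2% against 35.2 and 55.7%, so replicate 2 was above replicate 1 in both groups. Under TMM the groups overlapped for all 13 genes. Under library totals GFP-negative replicate 1 was above GFP-positive replicate 2 for 13 of 13, compared with 9 of 13 under TMM.

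**Figure D4:**
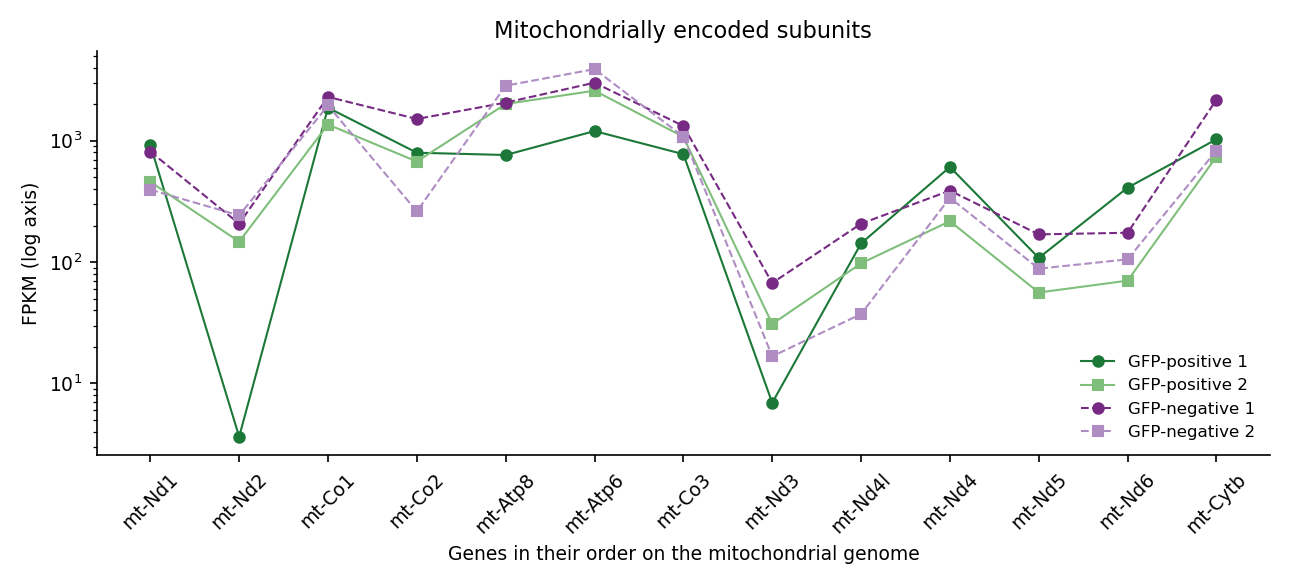
FPKM (log axis) of the 13 mitochondrially encoded subunits in their order on the genome, with 1 line per library (solid for GFP-positive, dashed for GFP-negative). mt-Atp6, mt-Co1 and mt-Atp8 are the highest by mean, mt-Nd3 is low in every library, and mt-Nd2 is low in GFP-positive replicate 1 alone.

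The 9 pseudogenes took up few reads, 2295 and 4310 counts in GFP-positive and 2578 and 6627 in GFP-negative libraries, or 0.243, 0.259, 0.171 and 0.237% of the nuclear subunit counts. Of these 9, 7 entered the fit and 0 were called. Cox5b-ps was the most abundant, at 24.2 and 32.5 against 10.1 and 48.1 CPM, and Cox6c2, annotated as a processed pseudogene, had 16.4 and 12.05 against 3.93 and 18.8 CPM. The pseudogenes resemble their parents in sequence, and how reads shared between copies were counted is not given, so their levels and a small part of those of the parents are uncertain.

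Other genes of the pathway showed no call either. Of 51 assembly factors, which build the complexes and do not stay in them, 0 passed in either direction, 38 had a fitted change above 0 and the median was 0.97. Of 78 mitochondrial ribosomal proteins 0 passed (median 0.71), of 18 citric acid cycle genes 0 (1.48), of 17 tested genes for expression of the mitochondrial genome 0 (1.15) and of 13 coenzyme Q synthesis genes 0 (0.97). Over all tested genes the median was 0.91, with 11102 of 16301 above 0, and over nuclear subunits 0.25. In GFP-positive replicate 1, counts of 0 were found for 30 of 51, 40 of 78, 8 of 18, 12 of 18 and 10 of 13 genes of these lists in the table. Without that library the list medians were 0.15, 0.15, 0.71, 0.48 and 0.16, against 0.07 for nuclear subunits and 0.29 for all genes.

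Cycs, cytochrome c, stood at 364 and 638 against 527 and 2553 CPM (1.62 ± 1.19, edgeR adjusted p = 1.0), highest in the same library as most nuclear subunits. Mdh2, a malate dehydrogenase of the citric acid cycle, had 194 and 614 against 605 and 2270 CPM (1.83 ± 1.24). Both had their highest value in GFP-negative replicate 2 and their lowest in GFP-positive replicate 1. Sucla2, of succinyl-CoA synthetase, went the other way, with 1034 and 76.8 against 96.2 and 140 CPM (-2.23 ± 1.80). Sco1, a copper chaperone for complex IV, had 0 and 0 against 10.3 and 5.98 CPM, with no count in either GFP-positive library. Foxred1, an assembly factor of complex I, had 443 and 24.2 against 39.7 and 14.1 CPM.

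Of the 7 tested regulators of nuclear subunit genes 0 passed. Nrf1, whose core motif is printed above, had 0.11 and 18.6 against 23.4 and 22.2 CPM, so it was level in 3 libraries. Gabpa, an ETS factor, had 250 and 12.7 against 19.3 and 9.73 CPM (-3.18 ± 3.24), and Pprc1 0 and 1.33 against 11.98 and 5.98 CPM. Ppargc1a, the coactivator PGC-1α of mitochondrial biogenesis, had 0 and 7.15 against 0.25 and 0.63 CPM. Among 4 tested genes of a list of further parts of the chain (Cyc1, Cycs, Ndufab1 and Etfdh), 0 passed and all 4 had changes above 0. Changes above 0 were also fitted for 11102 of all 16301 tested genes. Ssbp1 and Trmt10c, for upkeep and transcript processing of the mitochondrial genome, had 392 and 50.9 against 43.6 and 48.4 CPM and 0 and 20.4 against 84.5 and 52.3 CPM. Mrps16 and Mrpl28 of the mitochondrial ribosome had log2 changes of -1.91 ± 2.14 and 1.25 ± 1.57, and Coq7 and Coq8a of coenzyme Q synthesis 1.30 ± 2.33 and -1.85 ± 3.33. Etfdh, which passes electrons from fatty acid oxidation to coenzyme Q, had 0 and 32.6 against 65.7 and 30.0 CPM.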

How the data were processed

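In the table the authors deposited, each library has a column of raw counts and one of FPKM (fragments scaled to gene length and depth), as its headers name them. Per the labels' protocols, cDNA was made with an oligo(dT) primer by SMARTer template switching and amplified by PCR, and no molecular identifiers are described, so intervals and floors cover counting error only. The submitters' processing notes name cutadapt 1.9, HISAT2 2.2.1, StringTie 2.1.6, DESeq2, edgeR and mm10; which tool made which column, the annotation and the handling of shared reads are not stated there.

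Counts were fitted in R 4.3.3 with edgeR 4.0.16 (filterByExpr with a minimum count of 10, TMM, glmQLFit and glmQLFTest, group as the only term) over 16301 genes, and p-values were adjusted by Benjamini-Hochberg with calls below 0.05. Each standard error is the log2 change over the root of F. Alternatives used DESeq2 1.42.0 and limma 3.58.1 on log2 FPKM with pseudocounts of 1 and 0.1. Library differences used log2(CPM + 1). Positions came from GENCODE M21, of the same build. Genes were named by a rule: per complex the smallest p and highest FPKM, paralogues, genes lost in 1 library, the largest replicate differences, mitochondrial genes, and the smallest p per list; Ndufa1, Ndufa6, Ndufa11, Ndufs4, Ndufv1, Sdha, Uqcrb, Atp5a1, Atp5b, Cyc1, Ndufab1, Nrf1, Ppargc1a and the pseudogenes were added after their values were seen. The members and lists were chosen with earlier results of these data known. Column totals served as depth.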

Additional observations from a re-analysis of the deposited data

How the results depend on the processing

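The count of 0 called subunits held under 12 of 13 alternatives, the exception being the fit without GFP-positive replicate 2. Leaving out each library gave 0 to 11 subunits and 1 to 7601 of all genes. Both upper values came from that exception, with 11 of 93 subunits and 7601 of 16804 tested genes. Its median log2 change was 0.52 over nuclear subunits and 9.95 over all tested genes. That fit rests on a single GFP-positive library, so its calls are not read as a group difference. All genes called numbered 16 in the reported fit, 63 with DESeq2's Wald test, 0 with limma on log2 FPKM at either pseudocount and 5 among genes with counts in all 4 libraries. Leaving out 1 library moved the median log2 change from -1.06 to 1.05 in complex I, -1.02 to 1.06 in III, -1.40 to 0.68 in IV, -0.96 to 0.41 in V and -1.07 to 0.78 over nuclear subunits. The median of the mitochondrially encoded subunits, -0.15 as reported, was 0.40 under library totals and 0.41 with limma on FPKM at either pseudocount. The log2 ratio of mitochondrial to nuclear level, 0.17 as sums, was -0.63 as a difference of medians. Apart from the fits that leave out a library, the cause of these moves was not tested.

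Nothing in the labels says that libraries with the same replicate number belong together. Their deviations from the group means correlated at -0.07, a single value that does not settle whether they were paired. With a replicate block edgeR called 0 subunits and 21 of all genes. In that fit the median log2 change was -0.11 over nuclear subunits and 3.92 over all 16301 tested genes, 12362 of which were above 0. Depth sets a floor of 3 counts, or 0.026 to 0.080 CPM, for counting error only.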
